A study of Homo sapiens with 18 samples.

Results

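Open chromatin was measured at 71318 regions (peaks, each 501 bp wide) in Raji cells, and 2284 of these regions lay where the ends of neighbouring genes meet. A peak was taken as shared when its centre lay within 1 kb of a start or end coordinate of at least 2 different protein-coding genes of the RefSeq annotation on GRCh38, on autosomes, with readthrough genes left out. The 2284 shared peaks touched 3141 genes in 1615 different sets of genes, and 10996 further peaks lay at the end of exactly 1 gene and served as the comparison (single peaks). Raji is a human B-cell line from a Burkitt lymphoma. All samples carried the genotype Smarca4+/+ per the labels, and the groups were cells of high GFP (GFP_HIGH) and of low GFP (GFP_LOW) at 24, 48 and 72 h, with 3 replicates of each. What GFP reports is not given in the labels, nor whether a treatment was given or the replicates came from separate cultures. The series concerns SMARCA4 (BRG1), which supplies the motor activity of BAF chromatin remodellers, so the comparison of interest is accessibility in GFP-low against GFP-high cells.

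Neighbouring genes that start back to back on opposite strands, called head to head or divergent, share the stretch between their starts as a promoter region. Such bidirectional promoters are common in the human genome, are usually rich in G, C and CpG dinucleotides, and often serve genes with housekeeping roles such as DNA repair, mitochondrial function and chaperones. Genes may also meet head to tail, where the end of the upstream gene lies close to the start of the next gene on the same strand, or tail to tail, where only transcription ends meet. Remodelling complexes of the BAF family act widely at distal enhancers, and active promoters hold open chromatin by several other means as well.

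The stretches between the starts of 6 head-to-head pairs named in the results are printed to show what a shared promoter looks like. They are the pairs among the largest changes, the highest levels and the preset known pairs whose starts lay 20 to 250 bp apart on matched strands. The sequences come from RefSeq promoters on GRCh38, read 5′ to 3′ on the plus strand, and capitals mark matches to 1 of 8 searched motifs on either strand.
HSPD1/HSPE1, chr2:197500275-197500378: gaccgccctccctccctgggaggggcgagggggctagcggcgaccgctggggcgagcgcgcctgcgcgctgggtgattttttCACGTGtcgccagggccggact
BORCS8/RFXANK, chr19:19192153-19192257: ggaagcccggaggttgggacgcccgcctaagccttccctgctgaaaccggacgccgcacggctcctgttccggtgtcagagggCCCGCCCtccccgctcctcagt
KDM5A/CCDC77, chr12:389321-389346: aaatccctccgccccctgcaggaaac
ACOT8/ZSWIM3, chr20:45857393-45857613: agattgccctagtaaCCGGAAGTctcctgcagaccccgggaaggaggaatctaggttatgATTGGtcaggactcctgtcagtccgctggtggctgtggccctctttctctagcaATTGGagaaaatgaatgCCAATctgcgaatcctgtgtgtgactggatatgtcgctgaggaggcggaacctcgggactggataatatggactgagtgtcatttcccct
FAM76B/CEP57, chr11:95789783-95790013: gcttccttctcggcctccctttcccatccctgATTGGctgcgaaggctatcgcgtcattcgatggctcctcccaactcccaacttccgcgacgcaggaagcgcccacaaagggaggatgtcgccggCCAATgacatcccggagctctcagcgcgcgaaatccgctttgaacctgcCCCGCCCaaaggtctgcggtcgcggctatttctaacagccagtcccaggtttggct
SLC25A40/DBF4, chr7:87876361-87876492: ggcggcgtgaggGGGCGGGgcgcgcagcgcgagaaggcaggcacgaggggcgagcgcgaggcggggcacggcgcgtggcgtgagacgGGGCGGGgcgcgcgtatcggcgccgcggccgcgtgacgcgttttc

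The first gene of each name starts on the minus strand at the left edge and the second on the plus strand at the right edge. The measured peaks of ACOT8/ZSWIM3, FAM76B/CEP57 and SLC25A40/DBF4 cover the printed stretch. Those of HSPD1/HSPE1, BORCS8/RFXANK and KDM5A/CCDC77 lie beside it without overlap, so the printed bases are not those whose level is given. The stretch of SLC25A40/DBF4 holds 29 CpG dinucleotides in 132 bases and 81.1% G and C, with the GC box GGGCGGG bound by SP and KLF factors present 2 times. That of ACOT8/ZSWIM3 holds 7 CpG dinucleotides in 221 bases and 52.0% G and C, with the ETS motif CCGGAAGT and 3 CCAAT boxes. HSPD1/HSPE1, the mitochondrial chaperonin pair, holds the E-box CACGTG, and KDM5A/CCDC77 holds none of the searched letters in its 26 bases. A match is a string of letters and was not tested as a binding site.

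Each GFP level and time was represented by 1 library, because the 3 deposited columns behind each showed no spread beyond scaled counting noise: their squared differences were 1.78 to 1.82 times the counting variance in all 18 such pairs. The 3 columns were summed, which gave 6 libraries of 22908652 to 29790483 counts. P-values therefore rest on how the GFP contrast varied between the times, a spread that may be technical. With 2 residual and a median of 22.6 prior degrees of freedom, this spread was drawn mostly from the peaks as a whole. A small p thus does not show that a peak changed alike at all times. Levels are CPM, counts scaled to library size, and log2 changes are GFP low minus GFP high, so higher and lower mean higher and lower in GFP-low cells. Of 8 B-cell marker genes, 6 had a gene-end peak, at 14.45 to 79.0 CPM. Of 6 T-cell markers 4 had one, at 2.65 to 38.1 CPM, of 6 myeloid markers 2, and of 6 epithelial and stromal markers 1. No peak of a T-cell, myeloid, epithelial or stromal marker was a shared peak. Leaving out SPI1, the 8 single peaks of these markers had 5 lower and 0 higher, with a median log2 change of -0.47. Among all single peaks 4.85% were lower and 33.5% higher, and among all peaks 25.4% and 13.4%. These shares were not matched for level. The part of other cell types in the results below was not tested.

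Most shared peaks did not pass the threshold in either direction, many of the rest were slightly higher in GFP-low cells, and few were lower. Over the 3 times 868 of 2284 (38%) were higher and 39 (1.71%) were lower at an adjusted p under 0.05 (edgeR quasi-likelihood test, Benjamini-Hochberg over all peaks). Among all 71318 peaks 13.4% were higher and 25.4% lower. Among single peaks 3682 (33.5%) were higher and 533 (4.85%) lower. The median log2 change was 0.19 over shared peaks, with the middle 50% from 0.10 to 0.25, against 0.18 over single peaks and 0.03 over all peaks. Of the peaks past the threshold, no shared peak rose 2-fold and 4 fell by at least that much. Among all 71318 peaks 5 rose and 2855 fell by that much, and among 10996 single peaks 1 rose and 36 fell. The GFP levels did not overlap, with all 3 GFP-low libraries above all 3 GFP-high libraries, at 1024 shared peaks (44.8%). This was so at 42.1% of single peaks and 20.8% of all peaks. All 3 were below at 62 shared peaks (2.7%), against 5.62% among single peaks and 25.1% among all peaks. These are descriptions of groups of peaks, and no test was made of the difference between the groups.

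Most of the rises depended on how the libraries were scaled. Shared peaks were tall, at a median of 26.9 CPM against 22.8 for single peaks and 7.59 for all peaks, and the GFP difference ran with level. Loess scaling, which removes any trend of the difference with level, left 188 shared peaks (8.23%) higher, where 13.7% of all peaks were higher under the same scaling. It left 46 (2.01%) lower, where 21.6% of all peaks were lower. Among single peaks it left 10.6% higher and 4.58% lower. The share of higher peaks was thus larger for shared than for single peaks before loess scaling and smaller with it. The median log2 change of shared peaks was 0.10 with loess. Loess scaling turned the sign at 127 of the 868 higher and 39 lower shared peaks. It did so at 450 of the 3682 higher and 533 lower single peaks. Among all peaks it did so at 680 of the 9570 higher and 18125 lower. The small share of lower peaks was thus found under both scalings, and the size of the share of higher peaks was not. The number of higher and lower shared peaks was 413 and 22 with DESeq2 and 182 and 23 without the 72 h pair of libraries.

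The arrangement of the 2 genes separated the shared peaks. Strand could be read for 2663 of the 3141 genes, which placed 1265 peaks at head-to-head starts, 278 at a head-to-tail junction and 56 at tail-to-tail ends. A head-to-head peak had both starts within 1 kb of its centre and did not need to lie between them. A further 523 peaks of gene pairs had no matched strand for at least 1 gene, 64 peaks touched 3 or more genes, and 39 lay at a gene short enough for both its ends to fall in the window. The rest were 34 peaks at starts on the same strand, 20 at a start and an end on opposite strands and 5 at ends on the same strand. Head-to-head peaks were the tallest, at a median of 32.5 CPM, with 553 (43.7%) higher and 9 (0.71%) lower. Peaks at the start of 1 gene alone had a median of 26.3 CPM, with 3044 of 8144 (37.4%) higher and 242 (2.97%) lower. Head-to-tail peaks, at 18.3 CPM, were higher in 73 cases (26.3%) and lower in 4 (1.44%). Tail-to-tail peaks were low, at 8.58 CPM, and resembled other ends without a start: 2 of 56 were higher and 10 (17.9%) lower, against 76 (8.87%) higher and 163 (19%) lower among 857 peaks at the end of 1 gene.

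**Figure D1:**
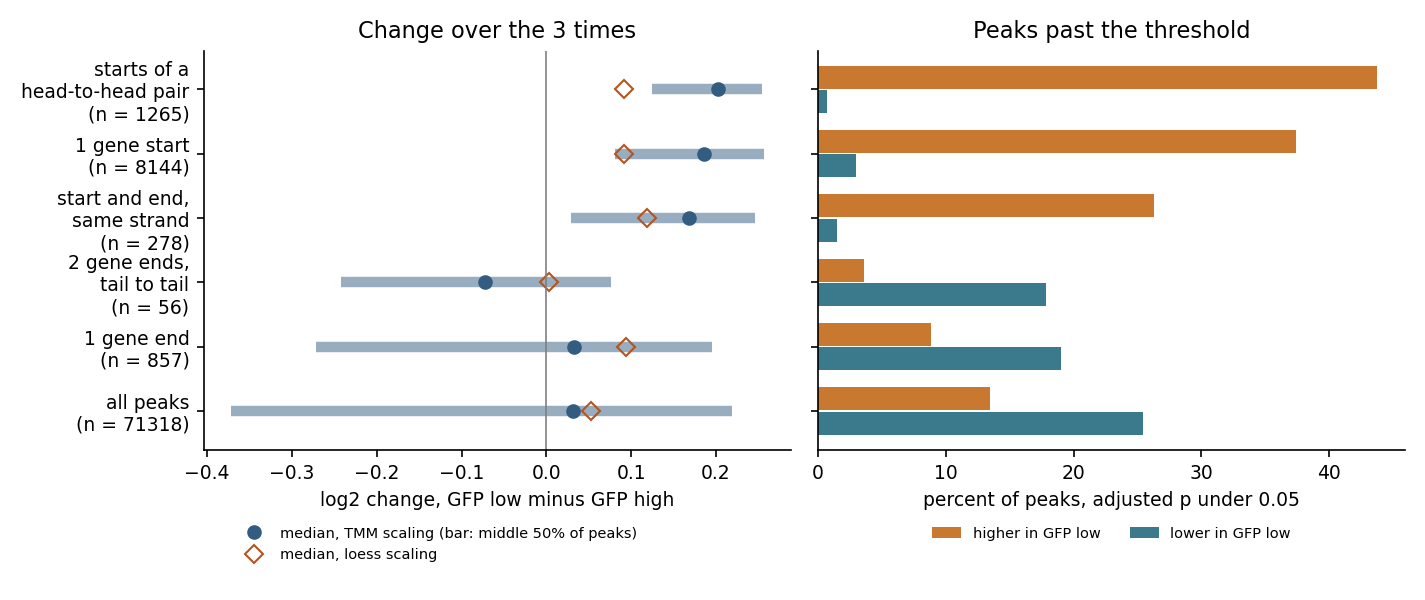
Left, median log2 change (GFP low minus GFP high, over the 3 times) of each class of peak with TMM scaling (filled circles, bar for the middle 50% of peaks) and with loess scaling (open diamonds). Right, percent of peaks of each class higher or lower at an adjusted p under 0.05; head-to-head starts have 43.7% higher and 0.71% lower, tail-to-tail ends 3.57% and 17.9%.

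The tail-to-tail class thus held 10 of the 39 lower shared peaks while making up 56 of the 2284. Head-to-head starts held 9, pairs without matched strand 13, head-to-tail junctions 4 and sets of 3 or more genes 3. The middle 50% of head-to-head peaks spanned 0.13 on the log2 scale, against 0.18 for single starts and 0.47 for single ends. Under loess scaling the median change of tail-to-tail peaks was 0.0030 and that of head-to-head peaks 0.09, the same as that of single starts. Head-to-head peaks were then higher in 6.88% of cases and single starts in 10.2%. Whether a peak holds less because fewer cells have it open or because all cells have it less open cannot be told apart in these bulk samples.

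The share of lower peaks was smaller among head-to-head peaks than among single starts at equal level as well. All peaks were divided into 10 classes of equal size by mean CPM, and the share of lower peaks among single starts was weighted to the levels of the head-to-head peaks. This gave 2.01% for single starts against 0.71% for head-to-head peaks, and 2.71% against 1.11% with loess scaling. The share of single starts that were lower was above that of head-to-head peaks in 9 of 10 classes, a description with no test. The classes up to 6.12 CPM held only 4, 5, 6 and 5 head-to-head peaks and say little. The exception was among them, with 2 of 5 head-to-head peaks lower. In the class from 7.59 to 9.73 CPM, 1 of 47 head-to-head peaks and 35 of 414 single starts were lower. In the class from 13.1 to 19.05 CPM it was 0 of 153 and 33 of 1164. In the highest class, from 33.0 CPM, the shares were close, at 2 of 617 (0.32%) and 12 of 3214 (0.37%). The share of higher peaks at equal level was 43.7% for head-to-head peaks and 43.5% for single starts, so the excess of rises in the unweighted count went with level.

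**Figure D2:**
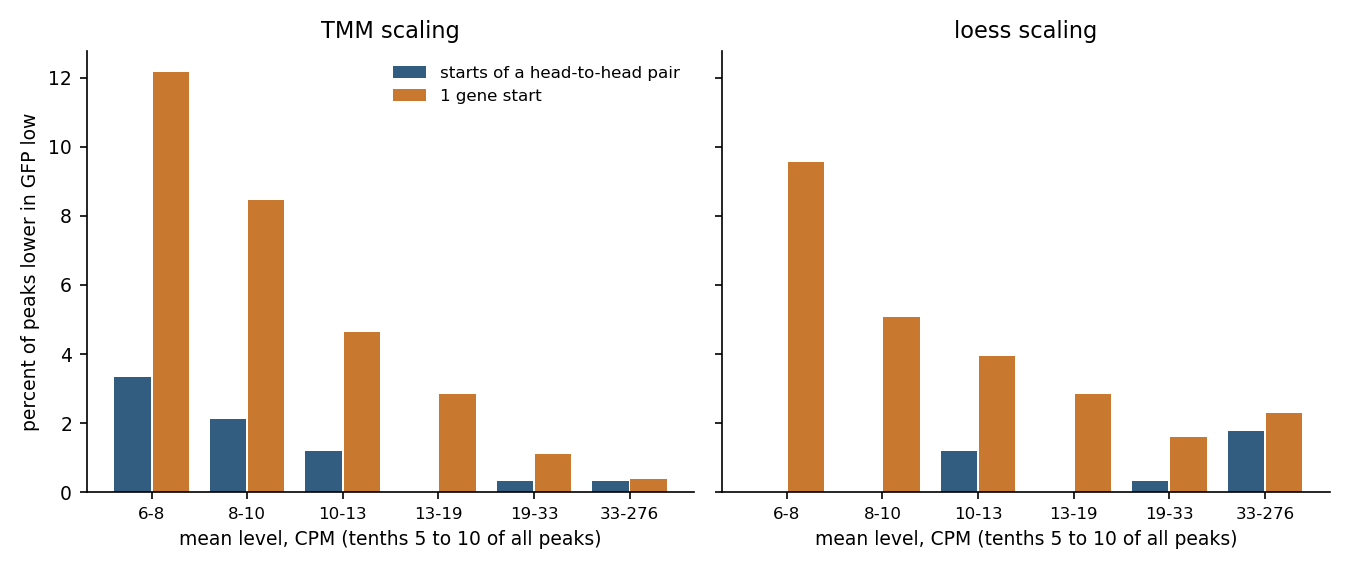
Percent of head-to-head peaks and of single starts that were lower in GFP-low cells, in the 6 upper of 10 classes of all peaks by mean level (CPM), with TMM scaling (left) and loess scaling (right). In each of these classes the share was larger for single starts, and the bars come close in the highest class.

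Peaks just inside and just outside the limit of 1 kb are given as a description, with no test. The 186 shared peaks whose second gene end lay in the last 100 bp inside the limit had a median of 18.7 CPM, with 45 higher, 6 (3.23%) lower and a median log2 change of 0.15. The 153 single peaks with a second gene end in the first 100 bp outside it had 18.9 CPM, with 35 higher, 9 (5.88%) lower and a median of 0.10.

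The difference between GFP levels at shared peaks was largest at 24 h and smallest at 48 h. The median CPM of shared peaks in GFP-high cells was 23.3, 26.4 and 25.1 at 24, 48 and 72 h. In GFP-low cells it was 30.2, 27.0 and 28.6. The GFP-low library was thus above the GFP-high library at each time, and the gap narrowed at 48 h from both sides: from 24 to 48 h the median log2 change was 0.12 in GFP-high cells and -0.12 in GFP-low cells. The median log2 difference was 0.30, 0.06 and 0.19 at the 3 times, and 88.9%, 62% and 84.5% of shared peaks were above 0. Over all peaks it was 0.01, -0.01 and -0.0014. With 1 library for each GFP level and time these differences have no replicate check.

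Head-to-tail junctions moved most with time. Their median log2 difference of 0.35 at 24 h fell to -0.0037 at 48 h and stood at 0.14 after 72 h, against 0.30, 0.09 and 0.20 for head-to-head peaks. Tail-to-tail peaks stood at 0.05, -0.11 and -0.08. The shared minus single difference in medians was 0.05, -0.02 and 0.02 at the 3 times, so it changed sign at 48 h, and it was 0.01 in the fit over times. Differences of 2-fold were rare among shared peaks at every time. At 24 h 3 shared peaks were at least 2-fold lower (8.16% of all peaks) and 1 was at least 2-fold higher (0.212% of all). At 48 h there were 3 lower (3.85% of all) and 0 higher (0.226% of all), and at 72 h again 3 lower (3.83% of all) and 0 higher (0.0911% of all).

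**Figure D3:**
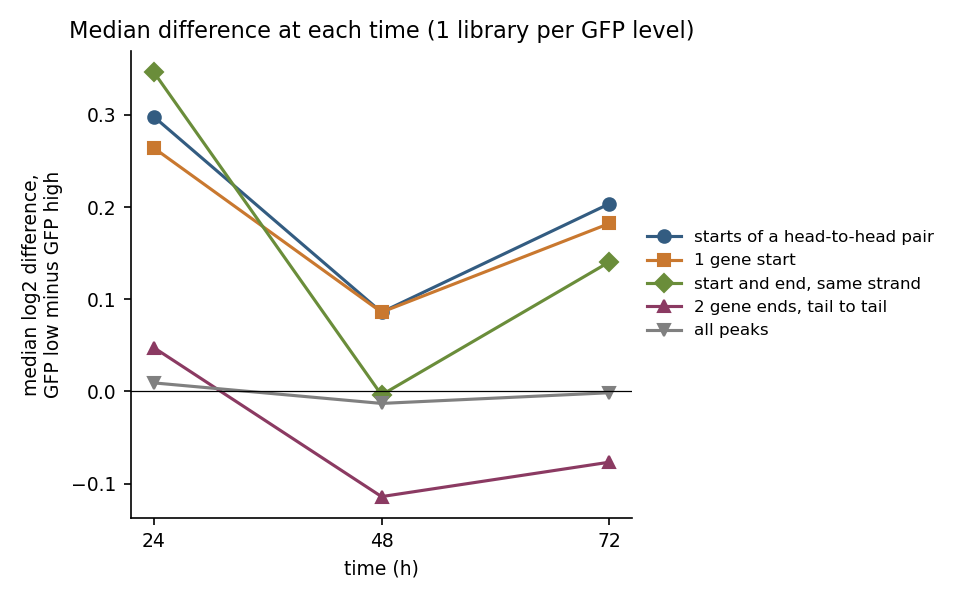
Median log2 difference between the GFP-low and the GFP-high library at 24, 48 and 72 h for 4 classes of gene-end peaks and for all peaks, with 1 library per GFP level and time. Gene starts are above 0 and lowest at 48 h (0.09 for head-to-head pairs), head-to-tail junctions fall from 0.35 to -0.0037, and all peaks together stay near 0.

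Among head-to-head peaks, level and the share of higher peaks rose together with the room between starts that did not overlap. Where the starts overlapped (289 peaks) the median level was 33.0 CPM and 43.9% were higher. With a gap of up to 100 bp (237 peaks) the level was 25.7 CPM and 29.96% were higher. From 100 to 200 bp (320 peaks) 40.6% were higher, from 200 to 400 bp (300 peaks) 50.7%, and over 400 bp (119 peaks, 40.4 CPM) 61.3%, with 0 lower in this last class. From the narrowest to the widest gap the median log2 change ran from 0.17 to 0.24, and from 0.09 to 0.11 with loess scaling. The distance of the peak from the midpoint of the starts went with level too. Peaks centred within 250 bp of the midpoint of the starts (676 peaks) had a median of 39.98 CPM, with 377 (55.8%) higher and 1 lower. Peaks over 500 bp from it (317 peaks) had 18.4 CPM, with 46 (14.5%) higher and 6 lower, while the loess medians of these classes were both 0.09.

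**Figure D4:**
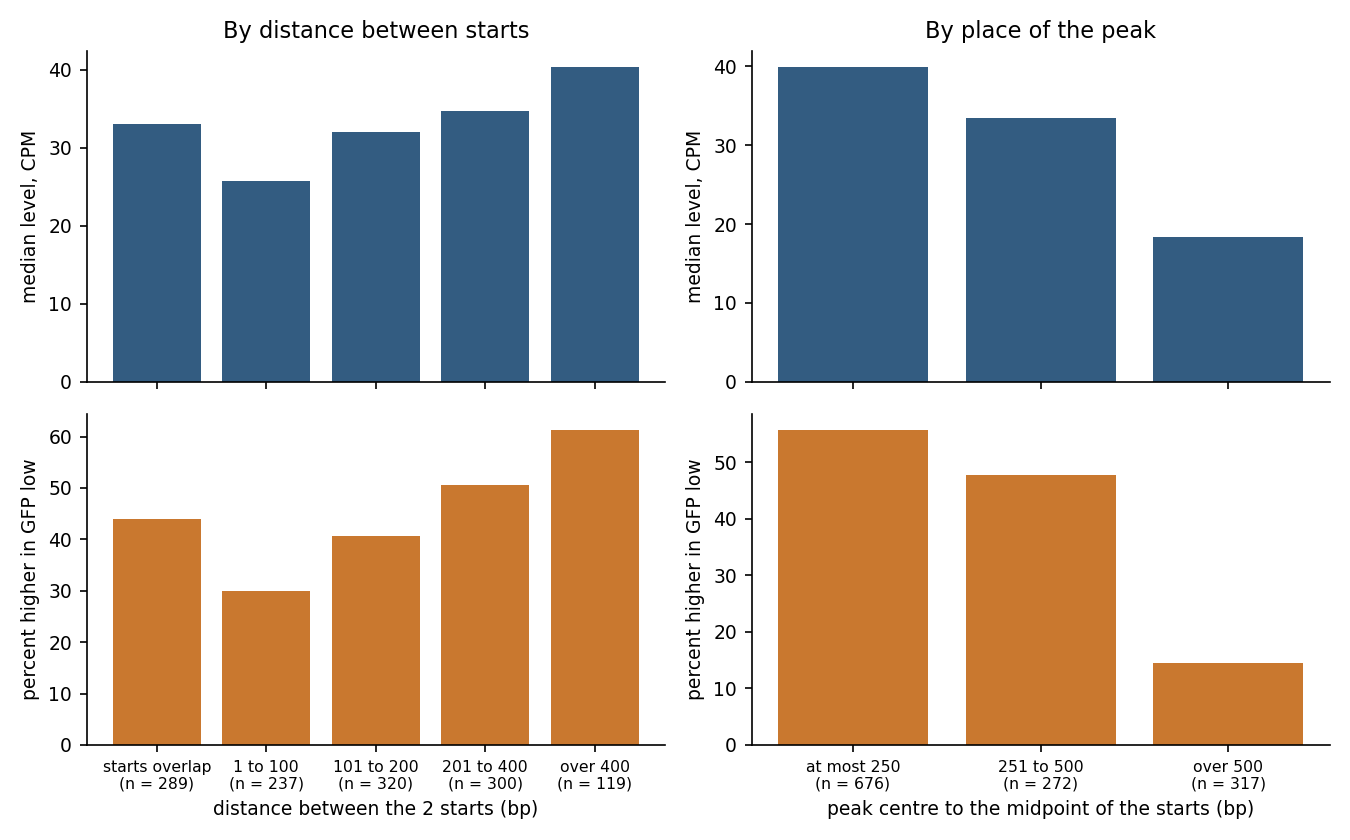
Median level (CPM, upper row) and percent of peaks higher in GFP-low cells (lower row) for head-to-head peaks by the distance between the 2 starts (left) and by the distance of the peak centre from the midpoint of the starts (right). Both measures are highest for gaps over 400 bp (61.3% higher) and for peaks within 250 bp of the midpoint (55.8% higher).

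Of the 1615 gene sets, 1004 had 1 shared peak, 554 had 2, 56 had 3 and 1 had 4. In the 611 sets with more than 1 peak, the tallest peak had a median of 44.0 CPM and was higher in 373 sets (61.0%) and lower in 3. The 669 lesser peaks of the same sets had 18.1 CPM, with 116 (17.3%) higher and 13 lower. A lesser peak had a smaller log2 change than the tallest of its set in 77.7% of cases, and in 45.3% with loess scaling. In 96 cases both were higher. In 5 sets the tallest peak was higher while a lesser peak was lower, and in 0 sets the reverse. These 5 were FAM186B/PRPF40B, GORASP1/TTC21A, GPN2/GPATCH3, KIAA0753/LOC122526780/TXNDC17 and TAFA2/USP15.

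The GORASP1/TTC21A and TAFA2/USP15 peaks, chosen for description after their values were seen, were the tallest of these falls. GORASP1 encodes a Golgi stacking protein, and its lesser peak with TTC21A (chr3:39108272-39108772) measured 40.8, 39.1 and 32.3 CPM at 24, 48 and 72 h in GFP-high cells and 24.9, 31.0 and 26.5 CPM in GFP-low cells. The GFP levels did not overlap, and the log2 change was -0.44 ± 0.10 (SE; adjusted p = 0.000943, edgeR), while the tallest peak of the pair rose by 0.28. USP15 encodes a deubiquitinase, and its lesser peak with TAFA2 (chr12:62260728-62261228) measured 50.7, 47.8 and 45.2 CPM in GFP-high cells and 36.4, 39.8 and 37.96 CPM in GFP-low cells. All GFP-low values were below all GFP-high values, and the change was -0.33 ± 0.08 (adjusted p = 0.00215, edgeR) beside a rise of 0.20 at the tallest peak. With loess scaling the lesser peaks were at -0.54 and -0.47, still past the threshold, while the tallest peaks were at 0.16 (adjusted p = 0.115, edgeR) for GORASP1/TTC21A and -0.02 (adjusted p = 0.717, edgeR) for TAFA2/USP15. Opposite calls within a pair thus depended on the scaling, and at none of the 5 sets were both peaks past the threshold with loess.

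The 8 largest falls among shared peaks lay mostly at low peaks. The largest was at the start of CASP6, which encodes an effector caspase, and the end of PLA2G12A, a secreted phospholipase gene (chr4:109708956-109709456). It measured 6.71, 3.46 and 3.90 CPM at 24, 48 and 72 h in GFP-high cells and 1.755, 1.85 and 1.43 CPM in GFP-low cells. The GFP levels did not overlap, and the level was 2.7-fold lower in GFP-low cells (log2 change -1.44 ± 0.225 SE, adjusted p = 3.09e-05, edgeR). NRG4/TMEM266, head to head on chromosome 15, was the only pair among the 8 with matched head-to-head strands; NRG4 encodes a neuregulin growth factor. It measured 5.68, 4.17 and 6.51 CPM in GFP-high cells and 3.00, 2.77 and 2.14 CPM in GFP-low cells, a log2 change of -1.035 ± 0.198 (adjusted p = 0.000262, edgeR). IGFBP6/SOAT2 (chr12:53102791-53103291) lay at the end of IGFBP6, which encodes a binding protein for insulin-like growth factors, and at SOAT2, which encodes a cholesterol-esterifying enzyme. Its levels of 15.0, 14.4 and 15.2 CPM in GFP-high cells and 7.64, 6.4 and 7.95 CPM in GFP-low cells varied little within a GFP level. Its log2 change was -1.02 ± 0.12 (adjusted p = 1.01e-06, edgeR).

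The other 5 falls ran from -1.002 to -0.685. LRRC26/TMEM210, with LRRC26 encoding a partner of BK potassium channels, was at 7.01, 6.07 and 5.42 CPM in GFP-high cells and 2.19, 3.48 and 3.57 CPM in GFP-low cells. HSD11B2/ATP6V0D1, where HSD11B2 encodes the enzyme that inactivates cortisol, changed by -0.84, and LAT2/RFC2, where LAT2 encodes an adaptor of B-cell receptor signalling and RFC2 a clamp-loader subunit, by -0.685. CLK3/EDC3 (-0.79) and SH2D7/CIB2 (-0.71) were tail-to-tail peaks; CLK3 encodes a kinase of splicing factors and EDC3 an mRNA decapping factor. The GFP levels did not overlap at any of the 8, and under loess scaling all 8 remained lower with log2 changes of -1.245 to -0.53. Without the 72 h pair of libraries HSD11B2/ATP6V0D1 was at -0.67 and no longer past the threshold.

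**Figure D5:**
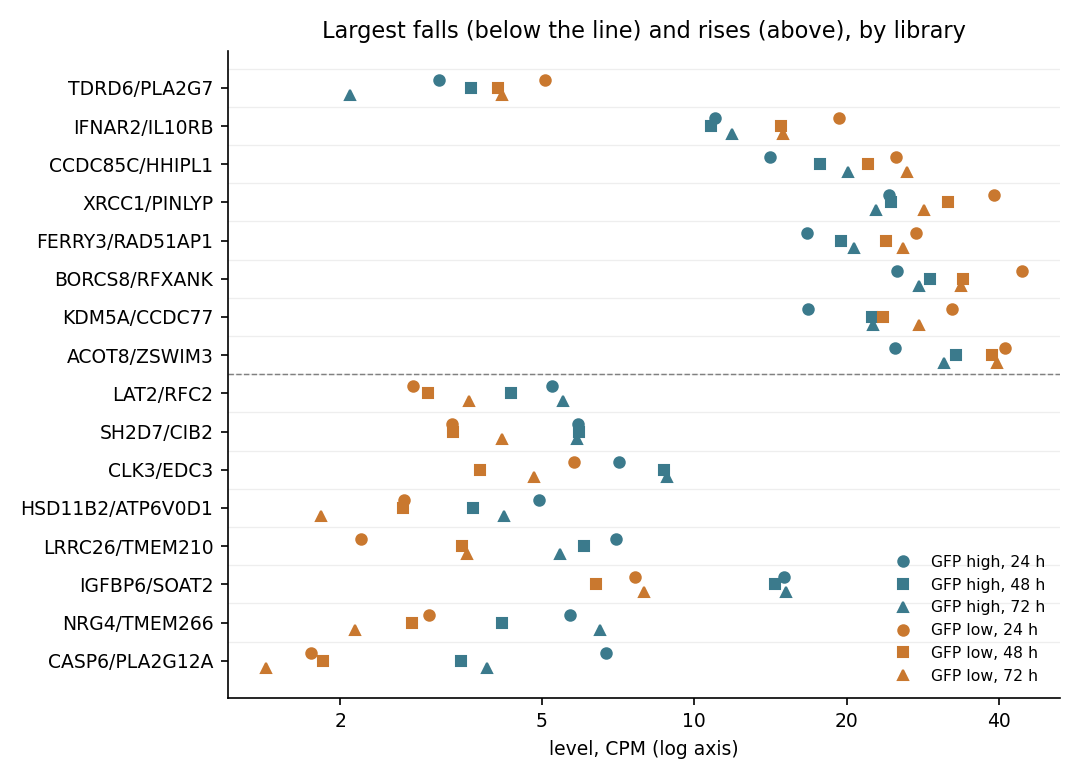
Level (CPM, log axis) of the 8 shared peaks with the largest falls (below the dashed line) and the 8 with the largest rises (above it) in each of the 6 libraries; colour gives the GFP level and shape the time. At all 16 peaks the GFP-low and GFP-high libraries do not overlap, and the falls lie at lower levels than most of the rises.

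The largest rises were smaller than the falls, and other than TDRD6/PLA2G7, at 3.70 CPM, they lay at taller peaks. TDRD6/PLA2G7, a tail-to-tail peak, rose by 0.60 ± 0.20 (adjusted p = 0.0185, edgeR), from 3.14, 3.63 and 2.09 CPM in GFP-high cells to 5.08, 4.09 and 4.18 CPM in GFP-low cells. PLA2G7 encodes the acetylhydrolase of platelet-activating factor, and this was 1 of 2 tail-to-tail peaks that rose. IFNAR2/IL10RB (chr21:33266091-33266591) lies between genes for receptor chains of type I interferon and of the interleukin 10 family. It measured 11.01, 10.8 and 11.9 CPM in GFP-high cells and 19.3, 14.8 and 14.9 CPM in GFP-low cells, a log2 change of 0.53 ± 0.12 (adjusted p = 0.00131, edgeR). The gap was widest at 24 h there, as at the 6 head-to-head pairs that complete the list.

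Those 6 pairs rose by 0.43 to 0.50. CCDC85C/HHIPL1 measured 14.1, 17.7 and 20.1 CPM in GFP-high cells and 24.98, 22.01 and 26.25 CPM in GFP-low cells. XRCC1/PINLYP, where XRCC1 encodes a scaffold of single-strand break repair, measured 24.2, 24.4 and 22.9 CPM in GFP-high cells and 39.1, 31.7 and 28.5 CPM in GFP-low cells. FERRY3/RAD51AP1, with RAD51AP1 encoding a homologous recombination factor, changed by 0.44 ± 0.11 (adjusted p = 0.00305, edgeR). GFP-low values were above all GFP-high values at each of these pairs, and the same was seen at the 3 rising pairs whose sequences are printed above. BORCS8/RFXANK, with RFXANK encoding a subunit of the RFX complex that activates MHC class II genes, measured 25.1, 29.15 and 27.8 CPM in GFP-high cells and 44.4, 34.0 and 33.7 CPM in GFP-low cells (0.44 ± 0.105, adjusted p = 0.0021, edgeR). ACOT8/ZSWIM3, with ACOT8 encoding a peroxisomal thioesterase, measured 24.9, 32.85 and 31.1 CPM against 41.1, 38.75 and 39.5 CPM (0.43 ± 0.095, adjusted p = 0.00107, edgeR). KDM5A/CCDC77, with KDM5A encoding a histone H3K4 demethylase, measured 16.8, 22.5 and 22.6 CPM against 32.3, 23.6 and 27.8 CPM. Its change of 0.43 was largest at 24 h, where the difference was 0.94 (95% counting interval 0.71 to 1.17), against 0.07 at 48 h (-0.135 to 0.28) and 0.30 at 72 h (0.093 to 0.51), and without the 24 h pair it was 0.20 and past no threshold. All 8 rises were past the threshold with loess scaling, at 0.32 to 0.76. With DESeq2 TDRD6/PLA2G7 (adjusted p = 0.0885) and KDM5A/CCDC77 (adjusted p = 0.182) were not, and TDRD6/PLA2G7 was at 0.43 and not called without the 72 h pair.

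Of the 6 tallest shared peaks 4 lay at head-to-head starts with matched strands, and all 6 changed little. KBTBD3/AASDHPPT reached a mean of 222 CPM, with 211, 200 and 207 CPM in GFP-high cells and 225, 248 and 243 CPM in GFP-low cells. SLC25A40/DBF4, printed above, serves a mitochondrial carrier and the activator of the CDC7 kinase that fires replication origins, and averaged 169 ± 9.61 CPM in GFP-high and 198 ± 9.58 CPM in GFP-low cells (SD over 3 times). FAM76B/CEP57, with CEP57 encoding a centrosomal protein, averaged 161 ± 0.93 and 186 ± 0.79 CPM, so its GFP levels stood far apart relative to the spread over times. FHIP1B/CNGA4 (182 CPM) and NUDCD1/ENY2 (180 CPM) had log2 changes of 0.13 and 0.20. These 6 tallest peaks, NPAT/ATM included, were higher in the fit over times with changes of 0.13 to 0.23. All 6 had the opposite sign with loess scaling, from -0.154 to -0.055, so no direction can be given for them.

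Gene pairs known as divergent from textbooks were looked up by name. Of 15 listed pairs, 10 had at least 1 shared peak, and PPAT/PAICS, SURF1/SURF2, MRPS12/SARS2, TAP1/PSMB9 and COL4A1/COL4A2 had none. At NPAT/ATM, which joins the coactivator of histone genes to the DNA-damage kinase, the taller peak (chr11:108222589-108223089) measured 167, 166 and 171 CPM in GFP-high cells and 187, 196 and 204 CPM in GFP-low cells. All GFP-low values were above all GFP-high values (0.22 ± 0.04, adjusted p = 0.000279, edgeR; -0.065 with loess). The adjacent lesser NPAT/ATM peak was at 42.75 CPM with overlapping values and a change of -0.05, and was called lower with loess (-0.19). The HSPD1/HSPE1 peak, beside the printed stretch, measured 86.7, 86.8 and 83.5 CPM in GFP-high cells and 100, 101.6 and 99.7 CPM in GFP-low cells. The change of 0.23 ± 0.05 (adjusted p = 0.00178, edgeR) fell to 0.01 with loess scaling.

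Most other listed pairs had changes of similar size. ZAR1L/BRCA2, with overlapping starts at the gene of the recombination mediator BRCA2, rose by 0.22, and the H2BC4/H2AC6 histone pair by 0.325. At PRKDC/MCM4, the DNA-dependent kinase and a subunit of the replicative helicase, both peaks rose, by 0.23 and 0.17. MRPL21/IGHMBP2 was at 0.15 (adjusted p = 0.264). KAT5/RNASEH2C, which the strands show to be no divergent pair but an end meeting a start, had 2 peaks at -0.18 and 0.25 that did not pass the test. None of the rises described at these pairs was past the threshold with loess scaling. Without the 72 h pair those at HSPD1/HSPE1, ZAR1L/BRCA2 and PRKDC/MCM4 were not either.

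Of the 2284 shared peaks, 85 had differences of opposite sign at 2 times with counting intervals away from 0, and of single peaks 271 of 10996. These intervals cover counting error only. No share over all peaks is given beside these counts, so they are not read as a trait of shared peaks.

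Lists of genes with shared functions were counted over their shared peaks, beside the 38% higher and 1.71% lower of all shared peaks. DNA replication and repair had 73 shared peaks, 29 higher and 1 lower, with a median log2 change of 0.19. VPS35/ORC6, at the gene of an origin recognition subunit, measured 63.2, 67.9 and 56.7 CPM in GFP-high cells and 84.4, 79.9 and 70.1 CPM in GFP-low cells (0.32 ± 0.06, adjusted p = 0.000307, edgeR). The mitochondrial ribosome had 48, of which 15 were higher and 0 lower, with TCP1/MRPL18 (0.24), MRPL50/ZNF189 (0.245) and PSMA2/MRPL32 (0.22) of smallest p and a highest log2 change of 0.39 in the list; those 3 were within 0.01 of no change with loess. The respiratory chain had 54, with 23 higher and 0 lower. ATP5F1E/PRELID3B, a head-to-tail peak at a gene of ATP synthase, rose by 0.415 ± 0.08 (adjusted p = 0.000378, edgeR), from 37.75, 43.5 and 38 CPM to 55.8, 48.9 and 54.3 CPM, and stayed higher with loess (0.27). ATP5PF/GABPA, which pairs another subunit of that enzyme with an ETS factor gene, rose by 0.27, and CCNE2/NDUFAF6 by 0.28.

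The proteasome and chaperonin list had the largest share of rises among the lists with over 20 peaks, 16 of 30, and 0 falls. It was also the tallest of those lists, at a median of 36.3 CPM, and the part of level was not tested. Its leading peaks were PRADC1/CCT7 (0.325), PSMG1/BRWD1 (0.37, and 0.19 with loess) and PSMB1/TBP (0.31), the last joining a proteasome subunit to the TATA-binding protein. Replication-dependent histones had 27, with 11 higher and 0 lower; H2BC11/H2AC11 rose by 0.25 and H2AC15/H2BC15 by 0.31. Aminoacyl-tRNA synthetases had 17, with 7 higher and 0 lower, led by KARS1/TERF2IP (0.29), CARS2/ING1 (0.21) and EARS2/UBFD1 (0.29). Ribosomal proteins had 28, with 10 higher and 0 lower, led by TRIM66/RPL27A (0.27), RPL7/RDH10 (0.24) and RPL5/DIPK1A (0.35). Zinc finger genes had 72, with 18 higher and 0 lower. LOC128031834/ZNF654 and LOC124901355/ZNF292 rose by 0.265 and 0.31. With loess scaling 8.23% of all shared peaks and 13.7% of all peaks were higher. Histones and synthetases then had 0 rises, ribosomal proteins 1, proteasome and chaperonin genes 4 of 30 and zinc finger genes 7 of 72.

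B-cell genes had only 3 shared peaks, and none passed the test. CIITA/DEXI, at the gene of the MHC class II transactivator, measured 17.2, 19.8 and 15.35 CPM in GFP-high cells and 23.7, 20.9 and 17.9 CPM in GFP-low cells (0.25 ± 0.11, adjusted p = 0.0785, edgeR). CD22/FFAR1, at the end of the gene of a B-cell inhibitory receptor, was at 11.8 ± 0.18 and 10.1 ± 0.82 CPM (SD over 3 times) with no overlap (-0.22, adjusted p = 0.138, edgeR). TCOF1/CD74, at the end of the invariant chain gene, was at 0.07 (adjusted p = 0.624, edgeR). Genes of BAF subunits had 13 shared peaks, 3 of them higher and 0 lower. These 3 were TBCC/BICRAL (0.28), BRD9/TRIP13 (0.26) and SS18L1/MTG2 (0.35). The SS18L1/MTG2 values overlapped between the GFP levels, and its rise rested on 24 h and 72 h, with a difference of -0.03 at 48 h. With DESeq2 none of the 3 was past the threshold (adjusted p = 0.0551 to 0.0576). Without the 72 h pair none was either (adjusted p = 0.117 to 0.237, edgeR). Without the 24 h pair TBCC/BICRAL and SS18L1/MTG2 were not past it. With loess scaling SS18L1/MTG2 stayed past it (0.32), while TBCC/BICRAL (0.155) and BRD9/TRIP13 (0.135) did not.

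Peaks at 3 or more genes ranged from small sets to a whole cluster. The shared end of the protocadherin gamma genes, where 22 genes use common last exons (chr5:141513084-141513584), measured 26.4, 25.1 and 24.1 CPM in GFP-high cells and 27.3, 23.4 and 20.3 CPM in GFP-low cells. These values overlapped, and the change was -0.10 (adjusted p = 0.45, edgeR). The 2 peaks at MKKS, SLX4IP and 2 uncharacterised genes rose by 0.36 and 0.34; SLX4IP encodes a partner of the SLX4 nuclease scaffold. ANGPTL5/CEP126 and UBXN11/CD52, also chosen after their values were seen, were 2 further head-to-head falls. UBXN11/CD52 fell by 0.46 ± 0.12 (adjusted p = 0.00408, edgeR), from 11.95, 11.4 and 12.3 CPM to 8.63, 8.07 and 9.17 CPM; CD52 encodes a surface glycoprotein of lymphocytes. ANGPTL5/CEP126 was at -0.22 (adjusted p = 0.0422, edgeR), with overlapping values, and lost its call without the 24 h pair (-0.09), without the 72 h pair (adjusted p = 0.0972, edgeR), with DESeq2 (adjusted p = 0.148) and on leaving out any of 6 single columns (adjusted p = 0.0513 to 0.0732, edgeR).

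Shared peaks were spread over all autosomes, and the share that was higher was smallest on 3 chromosomes of low level. The share of gene-end peaks that were shared ran from 11.2% on chromosome 4 to 24.0% on chromosome 16. On chromosomes 16, 17 and 22 only 17.99%, 13.4% and 9.62% of shared peaks were higher, at median levels of 16.4, 15.1 and 12.01 CPM. Single peaks of the same chromosomes were higher in 20.6%, 11.45% and 9.5% of cases. Chromosome 19, also low at 16.2 CPM, had 25.15% of shared peaks higher. Head-to-head peaks of chromosomes 16, 17 and 22 with both promoters known (127) had median differences of 0.42, -0.08 and 0.17 at 24, 48 and 72 h. On the other chromosomes (861 peaks) these were 0.28, 0.11 and 0.21. The part of level in these differences was not tested. On chromosome 21, 66.7% of 21 shared peaks were higher, at 31.4 CPM, and on chromosome 20, 52.6% of 57 at 21.35 CPM. With loess scaling the median log2 change of shared peaks on chromosome 22 was 0.20 and on chromosome 16 it was 0.10, against 0.03 on chromosomes 4 and 7.

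Base composition was compared in the 300 bases from 250 before to 50 after each gene start. Promoters matched for 1491 of 1686 genes at head-to-head peaks, with a median of 65.0% G and C, and for 4981 of 5483 other genes with a peak at their start alone, with 65.3%. All 13060 matched promoters had a median of 62.7%. The CpG content relative to that expected from base composition had medians of 0.875, 0.858 and 0.771 in the same order. Head-to-head promoters held the ETS motif CCGGAAGT more often, in 16.2% against 9.15% of single-start genes and 6.58% of all promoters. The NRF1 core GCATGCGC was found in 8.65%, 6.34% and 4.34%, and the YY1 core ATGGCGG in 15.7%, 11.6% and 7.99%. The TATA box TATAAA was rarer, in 3.09% against 5.68% and 10.1%, and the GC box GGGCGGG was in 51.0%, 55.1% and 44.3%. CCAAT was in 40.6%, 38.6% and 36.8%, the CRE motif TGACGTCA in 3.22%, 3.85% and 2.76%, and the E-box CACGTG in 11.3%, 10.5% and 8.78%. Both strands were searched, the facing promoters of a close pair share part of their bases, and these shares are descriptions.

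Composition also went with the size of the change at 48 h. Of the head-to-head peaks 988 had both promoters matched and were divided into 4 classes by the mean G and C content of the 2 promoters. The lowest class, up to 59.8% G and C, had a median level of 35.8 CPM and 49.6% higher, and the highest, from 70.0%, had 26.75 CPM and 33.6% higher. At 48 h the median log2 difference was 0.11 in the lowest and 0.01 in the highest class, while at 24 h it was 0.31 and 0.30. With loess scaling the medians over times were 0.11 and 0.08. Peaks with the ETS motif in either promoter had 43.4% higher and those without it 43.55%, so this motif did not separate them. Peaks with a CCAAT box in either promoter were taller, at 35.5 against 30 CPM, and 50.1% against 37.3% were higher. The part of base composition and level in these differences was not tested.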

How the data were processed

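Omni-ATAC-seq libraries of Raji cells were deposited as 1 table of whole-number read counts for 18 columns, not normalised per the file headers and values. FastQC, BWA, deepTools and R 4.2.1 with hg38 were used per the submitters' processing notes; what each did, the peak caller and the handling of duplicates were not given in the sources used here, and duplicates kept would add noise to each count. Times were read from the D numbers of the column names (D1 as 24 h, D2 as 48 h, D3 as 72 h), and the V numbers could not be tied to the replicate numbers of the labels.

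The 3 columns of each GFP level and time were summed to 1 library because they differed only by a multiple of counting noise, as earlier work on these files had found. All 71318 peaks were fitted with edgeR 4.0.16 in R 4.3.3 (robust quasi-likelihood fit, TMM scaling, model terms for time and GFP, 2 residual degrees of freedom, a median of 22.6 prior degrees of freedom, biological coefficient of variation 9.48%) and adjusted by Benjamini-Hochberg at 0.05. The script was tested on simulated data. A prior count of 2 entered log2 CPM. The 95% counting intervals were computed with the variance multiplied by 1.8 and cover counting error only; library totals limit the precision to a median counting SE of 0.10 to 0.11 on the log2 scale for a shared peak at 1 time.

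Gene ends came from 19014 autosomal protein-coding RefSeq genes on GRCh38 after 112 readthrough genes were left out, and strand from the RefSeq promoter table for 15011 of them. Exons, introns and UTRs were not separated. The members, gene lists and motifs were chosen with earlier results of these data known, so no p-value is given over a list. Named peaks were the 8 largest rises and falls that passed the threshold, averaged 30 or more counts per library and had 1 sign at all times, the 6 tallest, those of 15 known pairs, up to 3 per list with the smallest p and the 3 with the most genes; 4 more were chosen after their values were seen, and some peaks that the rule names are not reported here. Alternatives were DESeq2 1.42.0, other scalings and filters, 18 separate columns with and without a block, columns or times left out and other windows.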

Additional observations from a re-analysis of the deposited data

How the results depend on the processing

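The share of lower peaks was smaller among shared than among single peaks in all 34 alternatives, at 0.80% to 3.42% against 2.97% to 7.56%. Counts moved more. Counts of higher and lower shared peaks (868 and 39), then of single peaks (3682 and 533), were 413 and 22, then 1855 and 327, with DESeq2. Without the 72 h pair they were 182 and 23, then 780 and 337. With loess scaling 188 shared (8.23%) and 1166 single peaks (10.6%) were higher. Reading V numbers as time gave 1428 and 78, then 6157 and 831. Lower peaks numbered 11 shared and 288 single with a window of 500 bp, 109 and 922 with 2 kb, and 11 and 242 with gene starts only.

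Taking the 18 columns as separate libraries, 1456 shared peaks were higher and 61 lower, with 6313 single peaks higher. With the V number as a replicate block these were 1444, 59 and 6270. V numbers were not taken to pair the columns. Deviations of columns with the same V number correlated at a median of 0.0046 (-0.0052 to 0.018), below the limit of 0.1 set for pairing, against -0.0024 for columns of other V numbers, and 15 of 18 columns correlated best with their own V number, a hint from the data only.

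The median difference of shared peaks with loess scaling was 0.172 at 24 h and 0.0804 at 72 h, and with V numbers read as time it was 0.179 at both 24 and 48 h. The shared minus single median was -0.00099 without the 24 h pair. With loess scaling log2 changes turned to -0.065 at NPAT/ATM, -0.065 at PRKDC/MCM4, -0.010 at PSMA2/MRPL32, -0.031 at CARS2/ING1, -0.068 at FAM76B/CEP57, -0.079 at NUDCD1/ENY2, -0.154 at FHIP1B/CNGA4, -0.055 at SLC25A40/DBF4 and -0.090 at KBTBD3/AASDHPPT. Among 64 named peaks 21 lost their call with loess scaling and kept their sign, 20 without the 72 h pair and 10 with DESeq2. The cause was not tested. At 1 time a shared peak carried a median counting SE of 0.099 to 0.107 on the log2 scale, so at a peak with that error a difference no larger than the SE has a 95% counting interval that includes 0; taller peaks have smaller errors.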

Other observations

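Starts of single protein-coding genes that also had an end of a long noncoding RNA gene within 1 kb had a median level and a share of lower peaks between those of other single starts and of head-to-head pairs, and a share of higher peaks close to that of head-to-head pairs (43.7%). These 1976 peaks had a median level of 31.3 CPM, with 872 (44.1%) higher and 31 (1.57%) lower. The 6168 single starts without a noncoding gene end had 24.6 CPM, with 2172 (35.2%) higher and 211 (3.42%) lower. With loess scaling the lower shares were 2.38% and 3.32%. The groups differ in level, and no test of the difference was made.

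The far ends of genes that began at a head-to-head peak were low peaks, with called shares near those of all peaks (13.4% higher and 25.4% lower). Of 89 such peaks, at a median of 7.12 CPM, 10 (11.2%) were higher and 21 (23.6%) lower, against 142 of 768 (18.5%) lower at the far ends of other genes.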
